A study of Mus musculus with 2 samples.

Results

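The mitochondrial ribosomal protein genes of mouse bone marrow cells were followed across cell classes in a control library and in a library from a MYC transgenic genotype. The members were all features whose symbol starts with Mrpl or Mrps and a digit, pseudogenes left out, which gave 78 of the 32286 features: 49 Mrpl genes, named for the large subunit, and 29 Mrps genes, named for the small subunit. Transcript 3′ ends of single marrow hematopoietic cells were counted in droplets as unique molecular identifiers (UMIs), 1 per captured transcript molecule. The control library had the genotype Mx1Cre+/-;Rosa26+/+, and the MYC library had Mx1Cre+/-;Rosa26LSL-MYC/LSL-MYC, so that both carried Mx1-Cre. Mx1-Cre is a Cre recombinase under an interferon-inducible promoter that is active in blood cells and in some other tissues, and LSL-MYC is a MYC transgene at the Rosa26 locus behind a transcriptional stop that Cre cuts out. The series set out to compare marrow gene expression after MYC was overexpressed in hematopoietic stem cells. Age, sex, the agent and time of Cre induction and the number of mice behind each library are not given in the sources used here.

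The mitochondrial ribosome translates the few proteins that the mitochondrial genome encodes, all of them subunits of the respiratory chain and ATP synthase. Its RNAs come from mitochondrial DNA, whereas every protein of its large and small subunits is encoded in the nucleus, made on cytosolic ribosomes and imported. Some of these proteins descend from bacterial ribosomal proteins and others were added in mitochondria. Mature neutrophils are known for few mitochondria and a reliance on glycolysis, while progenitors and erythroid precursors, which make heme partly inside mitochondria, depend on them more.

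The control library held 17073 barcodes and 131884603 UMIs and the MYC library 14496 barcodes and 110012176 UMIs, of which 14903 and 12540 cells were kept, with medians of 5343 and 6016 UMIs. The libraries shared 97 cell barcodes. A feature named MYC, which is listed apart from the mouse gene Myc, had 0 UMIs in the control, which allows for up to 3 as a one-sided limit, and 289 UMIs in the MYC library, 154 of them in mature neutrophils. Immature neutrophils held 41, monocytes 38, granulocyte progenitors 10, erythroid cells 6 and stem or multipotent progenitors 5. T or NK cells held 3, basophils or mast cells 1 and mature B cells 0. Cells were grouped into classes by clustering without the members, and 9 classes had at least 100 cells in each library: stem or multipotent progenitor-like cells (194 control and 177 MYC cells), granulocyte progenitors (662 and 712), immature neutrophils (2301 and 2217), mature neutrophils (4000 and 3314), monocytes (1026 and 1244), basophils or mast cells (189 and 145), erythroid cells (1055 and 292), mature B cells (584 and 140) and T or NK cells (400 and 150). All these names mean "like", since they rest on marker genes. The T or NK class took its name from NK markers, yet Trbc2, Cd3g and Cd3e were among its leading genes. The classes were not made of the same clusters in both libraries: mature neutrophil cluster 2, led by Il1b, held 2102 control and 182 MYC cells, and cluster 4, led by Cstdc4, held 253 and 1635. The erythroid class pooled an erythroblast cluster (799 control and 195 MYC cells) with an erythroid progenitor cluster (256 and 97), so that progenitors made up 24.3% of its control cells and 33.2% of its MYC cells. Immature neutrophil markers (8 genes) were found outside their class as well, summed to between 2055 and 7124 CPM (UMIs per 1000000 UMIs of the class) in the control cells of the 6 compared classes outside the neutrophil lineage and to between 1028 and 6567 CPM in those of the MYC library, against 126040 and 108660 CPM in immature neutrophils. For control and MYC cells in turn that sum was 3142 and 1028 CPM among stem or multipotent progenitors and 7124 and 3518 CPM among basophils or mast cells, and 13400 and 8478 CPM among granulocyte progenitors. Among stem or multipotent progenitors their own markers (10 genes) stood at 1235 and 1017 CPM, below megakaryocyte markers (7 genes) at 2354 and 2126 CPM, one of which, Pf4, was among the leading genes of the cluster. Granulocyte progenitor markers (6 genes) were at 2827 and 4466 CPM and eosinophil markers (6 genes) at 352 and 1414 CPM in the same class. Erythroblast markers (7 genes) summed to between 408 and 1916 CPM in the control cells of the 8 classes outside the erythroid one and to between 157 and 796 CPM in the MYC cells, with a lower MYC sum in all 8 and every marker lower in 6. They stood at 408 and 157 CPM among granulocyte progenitors, 1916 and 742 CPM among mature neutrophils and 854 and 302 CPM among monocytes. The part of RNA or cells of other types in the ratios below was not tested.

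With 1 library per group no test between genotypes was possible. Levels are the UMIs of a gene or gene list in all cells of a class, as a share of the UMIs of that class, in CPM. Ratios are MYC over control. The 95% intervals in parentheses beside levels and ratios cover counting error only, not the spread between mice, which was not measured. Intervals beside member medians run over members, which are genes of the same libraries and not replicates. They leave out the spread between mice as well. A gene was compared in a class when it had at least 50 UMIs over both libraries, and it was counted as higher or lower when the ratio was at least 1.2, or at most its inverse, and the interval excluded 1.

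Among the 9 classes of control marrow the members' summed level was highest in granulocyte progenitors, at 5842 CPM (5803 to 5882), and lowest in mature neutrophils, at 1477 CPM (1459 to 1495). Between them lay erythroid cells at 4997 CPM (4967 to 5028), stem or multipotent progenitors at 4838 CPM (4773 to 4904), monocytes at 4464 CPM (4427 to 4502), basophils or mast cells at 3686 CPM (3597 to 3778), T or NK cells at 2687 CPM (2628 to 2748), mature B cells at 2529 CPM (2474 to 2585) and immature neutrophils at 2329 CPM (2311 to 2348). No counting intervals of neighbours in this order overlapped. The order depends on the pooling of erythroid stages: the erythroid progenitor cluster alone was at 7934 CPM (7873 to 7994), above granulocyte progenitors, and the erythroblast cluster alone at 2944 CPM (2913 to 2975). Of the 78 members, 40 had their highest control level in granulocyte progenitors, 22 among erythroid cells and 11 among stem or multipotent progenitors, and 72 had their lowest in mature neutrophils. With the erythroid stages taken apart, 64 members had their highest control level in the erythroid progenitor cluster and 7 in granulocyte progenitors. In the MYC library granulocyte progenitors held the highest level of 46 members (19 with the stages apart, against 50 in the erythroid progenitor cluster) and mature neutrophils the lowest of 71. The share of all genes with their highest or lowest level in these classes was not computed. Genes at large also fell: 68.2% of all genes compared were lower in control mature neutrophils than in control granulocyte progenitors.

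All 9 classes had a higher summed member level in the MYC library. The sum went from 5842 to 7586 CPM in granulocyte progenitors, a ratio of 1.30 (1.29 to 1.31). In immature neutrophils it went from 2329 to 3189 CPM (ratio 1.37, 1.35 to 1.38), and in mature neutrophils from 1477 to 1898 CPM (ratio 1.29, 1.26 to 1.31). The ratio furthest from 1 among the 9 was that of monocytes, 1.44 (1.43 to 1.46), from 4464 to 6436 CPM. Basophils or mast cells went from 3686 to 5131 CPM (1.39, 1.35 to 1.44), T or NK cells from 2687 to 3643 CPM (1.36, 1.30 to 1.41) and erythroid cells from 4997 to 6426 CPM (1.29, 1.27 to 1.30). Within the erythroid class the stages differed: erythroblasts went from 2944 to 4144 CPM (1.41, 1.38 to 1.44), and the progenitor cluster from 7934 to 8480 CPM (1.07, 1.05 to 1.08). Stem or multipotent progenitors, at 4838 and 5987 CPM (1.24, 1.21 to 1.26), and mature B cells, at 2529 and 3051 CPM (1.21, 1.15 to 1.27), had the ratios nearest to 1 among the 9 classes. Macrophages, megakaryocytes and plasmacytoid dendritic cells had too few cells in a library to be compared gene by gene, and their sums were also above the control: 2067 against 3619 CPM in macrophages (20 and 626 cells), 2936 against 4424 CPM in megakaryocytes (58 and 61 cells), and 2903 against 5060 CPM in plasmacytoid dendritic cells (274 and 73 cells).

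**Figure D1:**
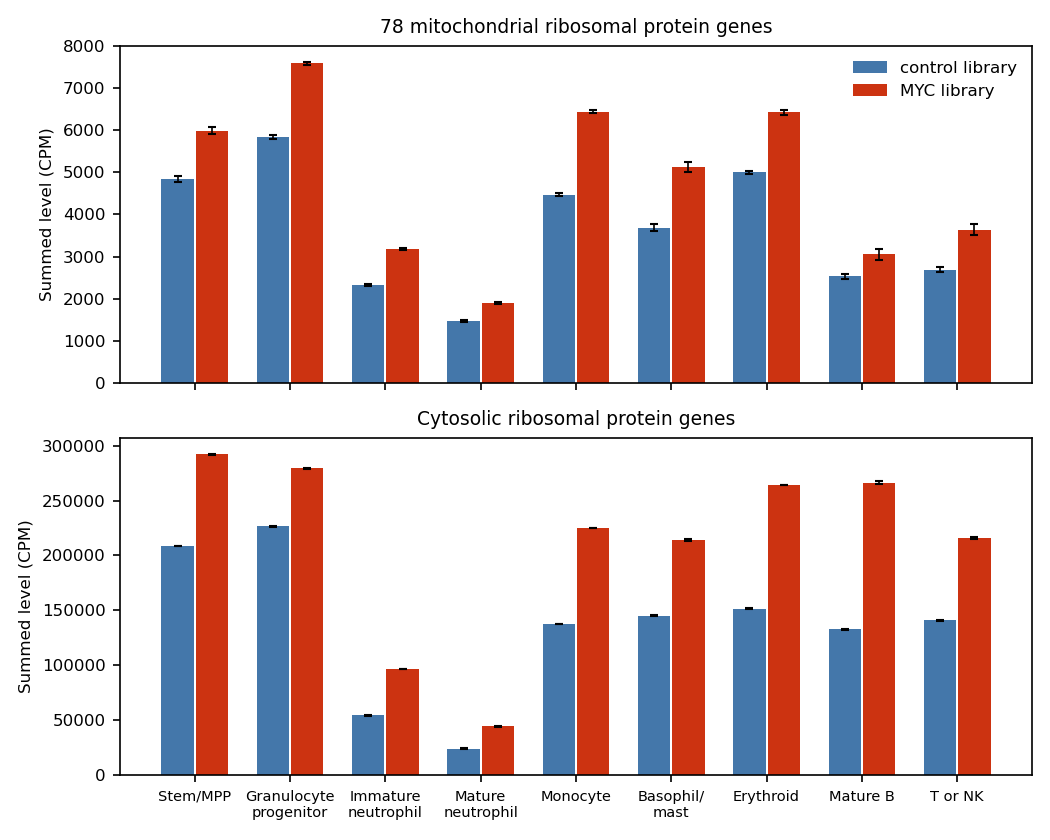
Summed level (CPM, linear axes from 0) of the 78 mitochondrial ribosomal protein genes (top) and of the cytosolic ribosomal protein genes (bottom) in 9 cell classes, control library in blue and MYC library in red, 1 library each, with 95% counting intervals as error bars. The red bar is above the blue one in every class in both panels, and mature neutrophils have the lowest bars.

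Gene by gene, the members stood above the bulk of genes. In granulocyte progenitors 59 of 78 members were higher and 0 lower, where 16.6% of all 10615 genes compared were higher and 36.5% lower. The members' median log2 ratio there was 0.40 (0.34 to 0.47, an interval over members), against -0.16 for all genes. Immature neutrophils had 55 members higher and 1 lower of 78 (17.6% and 41.3% of all genes), with a member median of 0.45 (0.35 to 0.59) against -0.18. Mature neutrophils had 40 higher and 2 lower of 75 (14.4% and 40.6% of all genes), with a median of 0.36 (0.30 to 0.44) against -0.20. In cluster 1 alone, which both libraries filled about evenly (1645 and 1497 cells), the mature neutrophil median was 0.44, and in clusters 2 and 4 alone 0.49 and 0.57. Monocytes had 68 higher and 0 lower of 78 (20.3% and 36.7% of all genes), with a median of 0.56 (0.51 to 0.62) against -0.15.

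The share of members that were higher was also above the share of all genes in the remaining classes, though with fewer UMIs and, for erythroid cells, depending on the stage. Basophils or mast cells had 36 of 70 members higher and 0 lower (13.9% and 25.7% of all genes), and T or NK cells 27 of 70 higher and 0 lower (12.5% and 12.9% of all genes), with medians of 0.48 (0.40 to 0.58) against -0.18 and 0.43 (0.34 to 0.53) against -0.07. Erythroid cells had 53 of 78 higher and 5 lower (21.9% and 32.1% of all genes), a median of 0.37 (0.29 to 0.45) against -0.10. These counts mix the stages. In the erythroblast cluster alone 44 of 75 members were higher and 2 lower (17.2% and 34.1% of all genes), with a median of 0.47 against -0.22. Over 14 alternatives the count of higher members lay between 17 of 67 at a finer clustering (12.4% of all genes) and 56 of 75 with another scaling (25.8%). The erythroblast median lay between 0.13 and 0.70. In the progenitor cluster alone, whose 97 MYC cells fall short of the minimum of 100, 14 of 78 were higher and 7 lower (14.7% and 33.5% of all genes), with a median of 0.13 against -0.17. The members' share of higher genes there lay near that of all genes, and their share of lower genes below it. Stem or multipotent progenitors had 35 of 78 higher and 2 lower (14.0% and 22.4% of all genes), a median of 0.27 (0.19 to 0.34) against -0.12. Mature B cells, with 140 cells in the MYC library, had 13 of 71 higher and 2 lower (7.43% and 23.5% of all genes), a median of 0.25 (0.10 to 0.39) against -0.29. In the pooled B lineage the median was 0.06 (-0.08 to 0.17) against -0.44, where 406 control but 16 MYC cells were B progenitors. Because the all-gene median lay below 0 in each class, median-of-ratios scaling, which sets it to about 0, raised the share of all genes counted as higher to between 14.5% and 28.0% and lowered the share counted as lower to between 8.93% and 25.5%. Under that scaling between 28 members (mature B cells) and 72 members (monocytes) were higher.

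**Figure D2:**
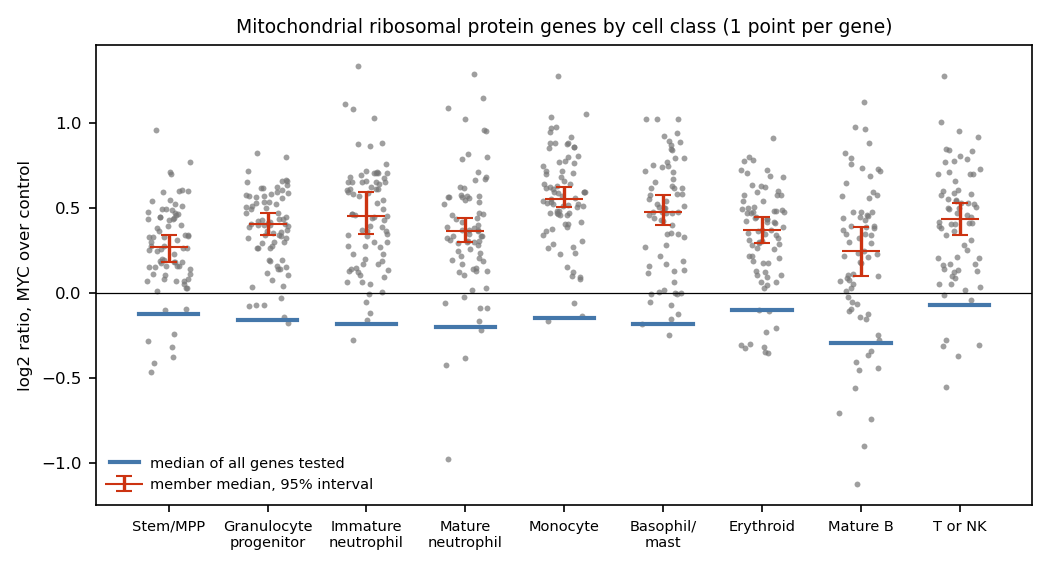
log2 ratio of MYC over control (pseudocount 1 CPM) for each member compared in 9 cell classes, 1 grey point per gene, with the member median and its 95% interval over members in red and the median of all genes compared as a blue bar. The red medians run from 0.25 in mature B cells to 0.56 in monocytes, and each blue bar lies below 0. The intervals leave out the spread between mice.

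In sum 74 of the 78 members were higher in at least 1 class, 52 in at least 4, and 8 were lower in at least 1 class, where 32.7%, 11.5% and 60.8% of the 12275 genes compared in any class were so. Of the 67 members compared in all 9 classes, 65 were higher in at least 1 (97.0%), 47 in at least 4 (70.1%) and 6 lower in at least 1 (8.96%), against 38.7%, 19.8% and 64.5% of the 5310 genes compared in all 9. With the erythroid stages in place of the pooled class, 74 members were higher in at least 1, 50 in at least 4 and 10 lower in at least 1 (32.6%, 11.7% and 63.0% of 12224 genes), the further lower members being Mrps2 and Mrpl48. Mrpl48, a large-subunit protein, was lower in both stages, with ratios of 0.791 (0.665 to 0.938) in the progenitor cluster and 0.777 (0.604 to 0.989) in erythroblasts, where it turned to a log2 ratio above 0 with thinning and at a finer clustering. The lower calls moved with the scaling of the totals: 1 member, Mrpl23, was lower in any class under median-of-ratios scaling (47.5% of all genes), 2 with cytosolic ribosomal protein genes left out of the total (Mrpl10 and Mrpl23; 51.9% of all genes), and 13 with the 20 most abundant genes of a class left out (66.6% of all genes). In the same order 76, 76 and 71 members were higher in at least 1 class (44.1%, 42.1% and 28.6% of all genes). Mrpl57, Mrps14, Mrps16 and Mrps24 were higher in all 9 classes, 4 of the 67 members compared in all 9 (5.97%) against 3.41% of genes compared in all 9 and 1.47% of genes compared in any. In the erythroid progenitor cluster alone the 4 had ratios between 1.16 and 1.18 and were not counted as higher, and with the 20 most abundant genes left out Mrpl57 was higher in 7 and Mrps14 in 8. Mrps14 and Mrps16 are small-subunit proteins with bacterial homologues, and Mrpl57 is a large-subunit protein found only in mitochondria. Mrps14 stood at 174 CPM in control and 253 CPM in MYC granulocyte progenitors (ratio 1.45, 1.38 to 1.53) and at 19.2 and 40.0 CPM in mature neutrophils (2.09, 1.83 to 2.39). Its ratio in the other 7 classes lay between 1.41 in erythroid cells and 1.65 in monocytes. Mrps16 had ratios between 1.29 (1.21 to 1.37) in granulocyte progenitors, at 108 and 139 CPM, and 1.78 (1.32 to 2.38) in mature B cells, at 54.8 and 97.7 CPM. Mrpl57 lay between 1.21 (1.06 to 1.38) in stem or multipotent progenitors, at 113 and 137 CPM, and 1.59 (1.22 to 2.06) in T or NK cells, at 66.3 and 105 CPM. Mrps24 went from 86.8 to 158 CPM in monocytes (1.82, 1.69 to 1.95), but its exons overlap those of Urgcp on the same strand, so reads of the neighbours may not be separable.

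The members whose median ratio over classes was furthest above 1 were Mrps34, Mrps28, Mrpl23, Mrps18b and Mrpl27. Mrps34, a small-subunit protein found only in mitochondria and needed for the stability of that subunit, was higher in 8 of 9 classes. It went from 39.5 CPM to 77.6 CPM in stem or multipotent progenitors (1.96, 1.61 to 2.40), from 29.9 to 61.9 CPM in basophils or mast cells (2.07, 1.45 to 2.97) and from 24.8 CPM to 61.6 CPM in T or NK cells (2.49, 1.70 to 3.60). Exons of Nme3 overlap Mrps34 on the same strand, so its counts may not be fully separable from those of its neighbour. Mrps28, the counterpart of a bacterial small-subunit protein, had its highest ratio in immature neutrophils, 2.85 (2.31 to 3.55), from 4.54 to 13 CPM. In granulocyte progenitors it stood at 71.2 and 125 CPM (1.75, 1.62 to 1.89), and in T or NK cells at 19.9 and 20.1 CPM (1.01, 0.552 to 1.76). Mrpl27, whose bacterial counterpart lies near the site of peptide bond formation, went from 36.9 to 66.2 CPM in granulocyte progenitors (1.79, 1.61 to 1.99) and from 20.7 to 43.1 CPM in basophils or mast cells (2.08, 1.36 to 3.23).

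Mrpl54, a large-subunit protein found only in mitochondria, was among the 2 members with the largest ratios in immature neutrophils, mature neutrophils and monocytes. Its level went from 23.9 to 52.9 CPM in immature neutrophils (2.21, 2.01 to 2.44), from 7.52 to 19.8 CPM in mature neutrophils (2.64, 2.15 to 3.26) and from 68.5 to 143 CPM in monocytes (2.09, 1.93 to 2.26). It was higher in erythroblasts too, at 29.5 and 67.4 CPM (2.28, 1.91 to 2.72), and in granulocyte progenitors, at 111 and 169 CPM (1.53, 1.44 to 1.63). Mrpl58, which can also free peptides from stalled ribosomes as a peptidyl-tRNA hydrolase, went from 5.01 to 12.3 CPM in mature neutrophils (2.45, 1.90 to 3.19). Mrpl43 went from 59.4 CPM to 102 CPM in stem or multipotent progenitors (1.72, 1.45 to 2.03), Mrpl40 from 21.3 CPM to 43.8 CPM in T or NK cells (2.06, 1.33 to 3.15), and Mrpl50 from 12.4 to 28.1 CPM in mature B cells (2.28, 1.24 to 4.03). The last of these ratios rests on 39 control and 19 MYC UMIs.

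The paralogues Mrps18a, Mrps18b and Mrps18c descend from 1 bacterial small-subunit gene, and their proteins sit at different places, that of Mrps18a in the large subunit. Mrps18b went from 12.4 to 31.4 CPM in monocytes (2.53, 2.11 to 3.05) and from 28.4 to 54.4 CPM in erythroid cells (1.91, 1.67 to 2.19). In the same cells Mrps18a went from 29.7 to 48.1 CPM (1.62, 1.43 to 1.84) and from 35.9 to 51.4 CPM (1.43, 1.25 to 1.63), and Mrps18c from 81.5 to 114 CPM (1.40, 1.30 to 1.51) and from 99.6 to 129 CPM (1.29, 1.19 to 1.40). Within the erythroid class Mrps18c had a ratio of 0.973 (0.863 to 1.09) in the progenitor cluster and 1.66 (1.48 to 1.86) in erythroblasts, Mrps18a 1.09 (0.935 to 1.28) and 1.89 (1.45 to 2.44), and Mrps18b 1.49 (1.28 to 1.72) and 2.46 (1.73 to 3.48). Exons of Gm43511 overlap Mrps18c on the same strand. In mature neutrophils Mrps18b had 1.43 and 2.53 CPM (1.76, 1.05 to 3.03) against 39.5 and 65.3 CPM of Mrps18c (1.65, 1.50 to 1.82). None of the 3 was counted as higher in mature B cells or T or NK cells, where their intervals included 1.

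**Figure D3:**
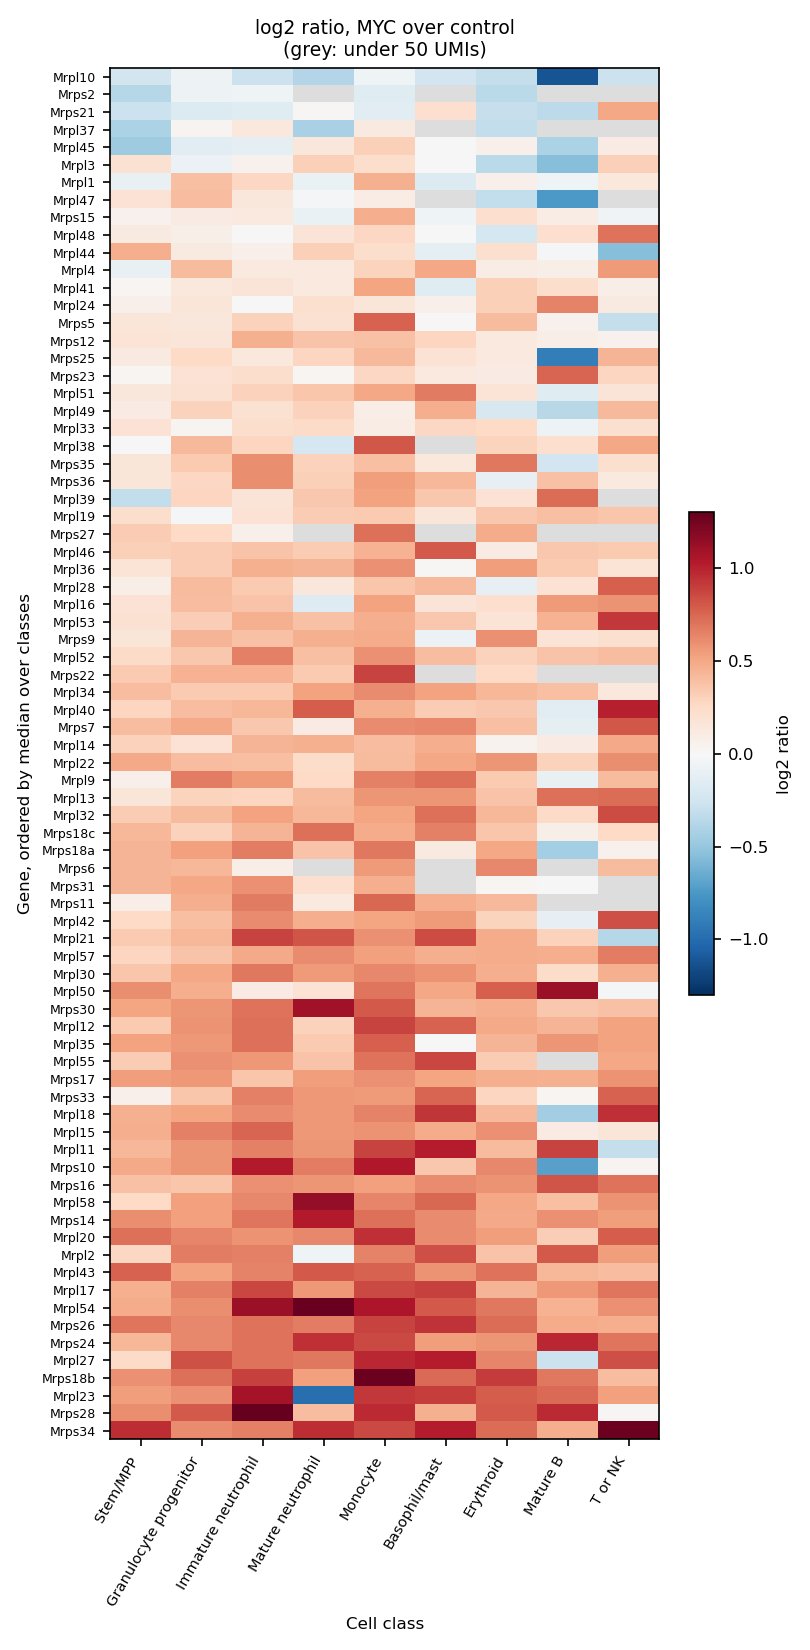
log2 ratio of MYC over control for each of the 78 members (rows, ordered by their median over classes) in 9 cell classes (columns), red for higher and blue for lower in the MYC library, grey where a gene had under 50 UMIs. Mrps34 and Mrps28 lie at the bottom with red in most columns, Mrpl10 and Mrps2 at the top, and Mrpl23 is blue in the mature neutrophil column alone.

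The structural groups of the mitochondrial ribosome were all higher in sum in the classes described here, by different amounts. Mrps18a and Mrps18b were listed with the proteins found only in mitochondria, of the large and small subunit in turn. Both descend from a bacterial gene, so these 2 groups are not purely of proteins added in mitochondria. In granulocyte progenitors 24 of 30 large-subunit proteins with a bacterial homologue were higher, with a summed ratio of 1.31 (1.29 to 1.33), and so were 15 of 21 large-subunit proteins found only in mitochondria (1.27, 1.25 to 1.30), 11 of 16 small-subunit proteins with a bacterial homologue (1.28, 1.26 to 1.31) and 8 of 10 small-subunit proteins found only in mitochondria (1.36, 1.32 to 1.40). Of all genes compared in granulocyte progenitors 16.6% were higher and 36.5% lower. In monocytes the same groups had ratios of 1.39 (1.37 to 1.41), 1.50 (1.47 to 1.54), 1.44 (1.41 to 1.48) and 1.55 (1.49 to 1.61). In mature neutrophils they had ratios of 1.22 (1.19 to 1.24), 1.45 (1.39 to 1.51), 1.35 (1.30 to 1.41) and 1.37 (1.27 to 1.48), so that large-subunit proteins with a bacterial homologue, to which Mrpl23 and Mrpl33 belong, lay below those found only in mitochondria. Mrpl genes gave 67.0% of the members' UMIs in control and 66.7% in MYC granulocyte progenitors, and 77.1% and 75.6% in mature neutrophils. Mrps36 belongs to none of these groups, since its protein is now counted with the oxoglutarate dehydrogenase complex. It stood at 141 CPM in control and 131 CPM in MYC erythroid cells (0.927, 0.857 to 1.0) and at 44.4 and 65.0 CPM in monocytes (1.47, 1.32 to 1.63). Within the erythroid class its ratio was 0.835 (0.750 to 0.928) in the progenitor cluster and 0.985 (0.875 to 1.11) in erythroblasts.

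The 5 listed ribosomal proteins of mitochondria that carry other symbols took no part in the choice of members. Chchd1 and Aurkaip1, which belong to the small subunit, and Gadd45gip1, which belongs to the large subunit, were higher in 8, 8 and 7 classes. In monocytes Chchd1 went from 68.7 to 109 CPM (1.59, 1.47 to 1.73), Aurkaip1 from 114 to 179 CPM (1.56, 1.47 to 1.67) and Gadd45gip1 from 43.7 to 76.4 CPM (1.75, 1.58 to 1.93). Dap3, the GTP-binding small-subunit protein, and Ptcd3, a pentatricopeptide protein of the same subunit, differed from them. Of 9 classes Dap3 had a ratio below 1 in 7, but in 4 under median-of-ratios scaling. It was higher in monocytes (48.1 and 59.3 CPM, 1.23, 1.11 to 1.37) and lower in stem or multipotent progenitors (64.7 and 52.1 CPM, 0.804, 0.660 to 0.979) and mature neutrophils (20.3 and 15.6 CPM, 0.767, 0.652 to 0.901), though in 0 classes under median-of-ratios scaling. Ptcd3 had a ratio below 1 in all 9 classes, in 7 under median-of-ratios scaling and in 6 with cytosolic genes left out, and was lower in basophils or mast cells, at 28.7 and 14.6 CPM (0.508, 0.290 to 0.861).

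A few members did not share the direction, and for most of them this depended on the scaling. Mrpl10, which anchors the stalk of the large subunit that recruits translation factors, had a ratio below 1 in all 9 classes, and in 7 under median-of-ratios scaling or with cytosolic genes left out. It was lower in 4, but under median-of-ratios scaling in 0 and with cytosolic genes left out in mature neutrophils alone. The 4 were immature neutrophils, at 20.2 and 16.5 CPM (0.816, 0.717 to 0.928), mature neutrophils, at 22.1 and 16.7 CPM (0.758, 0.648 to 0.885), erythroid cells, at 21.2 and 16.9 CPM (0.80, 0.641 to 0.992), and mature B cells, at 23.8 and 10.4 CPM (0.436, 0.169 to 0.943). Within mature neutrophil cluster 4 alone its log2 ratio was 0.05. Within the erythroid class its ratio was 0.766 (0.592 to 0.982) in the progenitor cluster and 0.598 (0.368 to 0.931) in erythroblasts. Mrps2, compared in 5 classes, had ratios below 1 in all 5, in 3 under median-of-ratios scaling, and was counted as higher or lower in none. In the erythroid progenitor cluster alone it was lower, at 25.5 and 17.0 CPM (0.667, 0.488 to 0.899). In granulocyte progenitors it stood at 15.1 and 14.4 CPM (0.950, 0.786 to 1.15). Mrpl3 and Mrpl37 were lower in erythroid cells, at 46.2 and 36.1 CPM (0.781, 0.672 to 0.904) and at 23.7 and 18.8 CPM (0.794, 0.644 to 0.974), and higher in no class. In the erythroid progenitor cluster alone their ratios were 0.651 (0.549 to 0.769) and 0.633 (0.496 to 0.80), and in erythroblasts 0.797 (0.576 to 1.08) and 0.935 (0.602 to 1.41). Under median-of-ratios scaling they were lower in 0 classes and higher in 3 and 2. Exons of Gm38077 overlap Mrpl3 on the same strand.

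Mrpl33 had the highest level of the members over all control cells, 311 CPM, against 419 CPM over all MYC cells, where the mix of classes differs. Exons of Gm43809 overlap it on the same strand, so reads of the neighbours may not be separable. Within classes it was higher in 2 of 9, basophils or mast cells, at 341 and 411 CPM (1.21, 1.07 to 1.35), and erythroid cells, at 154 and 184 CPM (1.2, 1.12 to 1.28), where the progenitor cluster had 0.975 (0.892 to 1.07) and erythroblasts 1.41 (1.27 to 1.57). The count of 2 classes depended on the scaling: it was 6 under median-of-ratios scaling or with cytosolic genes left out, and 1, mature neutrophils, with the 20 most abundant genes left out. Its ratio was 1.02 (0.991 to 1.06) in granulocyte progenitors, at 474 and 485 CPM, 1.17 (1.13 to 1.21) in immature and 1.19 (1.15 to 1.22) in mature neutrophils, and 1.07 (1.04 to 1.10) in monocytes, at 643 and 688 CPM. The monocyte value turned to a log2 ratio of -0.04 when the 20 most abundant genes were left out of the total. The next 4 by level were Mrpl52, Mrps21, Mrpl51 and Mrpl57. Mrpl52 went from 176 to 266 CPM in monocytes (1.51, 1.44 to 1.59) and from 296 to 365 CPM in erythroid cells (1.23, 1.17 to 1.29), with ratios of 0.989 (0.937 to 1.04) in the progenitor cluster and 1.39 (1.25 to 1.55) in erythroblasts. Mrps21 was lower in stem or multipotent progenitors, at 106 and 86.8 CPM (0.820, 0.703 to 0.954), and in erythroid cells, at 133 and 108 CPM (0.811, 0.745 to 0.883), but higher in T or NK cells, at 72.6 and 103 CPM (1.42, 1.09 to 1.83). Under median-of-ratios scaling it was lower in 0 classes and higher in 2, and with the 20 most abundant genes left out lower in 3 and higher in 0. Its log2 ratios just below 0 in immature neutrophils and monocytes turned to 0.05 and 0.03 under median-of-ratios scaling.

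Mrpl23, whose protein lines the exit of the peptide tunnel, was the member with the widest split between classes. Its directions were the same under all 3 other scalings of the totals. It was higher in 8 classes, among them immature neutrophils, at 23.6 and 51.1 CPM (2.16, 1.96 to 2.38), monocytes, at 91.6 and 174 CPM (1.90, 1.77 to 2.04), and erythroid cells, at 79.5 and 138 CPM (1.73, 1.59 to 1.88; 1.38 in the progenitor cluster and 2.0 in erythroblasts). In mature neutrophils it was lower, at 38.5 and 19.1 CPM (0.495, 0.433 to 0.566). The ratio was 0.496 (0.408 to 0.602) in mature neutrophil cluster 1, 0.459 (0.242 to 0.797) in cluster 2 and 0.535 (0.373 to 0.787) in cluster 4. In immature neutrophil clusters 3, 5 and 11 it was 1.41 (1.12 to 1.77), 2.28 (1.97 to 2.64) and 2.30 (1.94 to 2.72). In cluster 1 the share of cells with an Mrpl23 UMI was 16.5% in the control, at a median depth of 5153 UMIs, and 9.82% in the MYC library, at a median depth of 6524 UMIs.

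The cytosolic ribosomal protein genes, 84 in these files, were higher in the MYC library too, and in most classes by more. Their share of UMIs went from 5.43% to 9.68% in immature neutrophils, a ratio of 1.78 (1.78 to 1.79), against 1.37 for the members. In mature neutrophils it went from 2.41% to 4.42% (1.83, 1.82 to 1.84), in erythroid cells from 15.1% to 26.4% (1.74, 1.74 to 1.75) and in mature B cells from 13.3% to 26.6% (2.0, 1.99 to 2.01). Granulocyte progenitors were the exception among the 9 classes: the cytosolic share went from 22.7% to 27.9%, a ratio of 1.23 (1.23 to 1.24), below the 1.30 (1.29 to 1.31) of the members. UMIs of cytosolic genes per UMI of the members accordingly went from 38.8 to 36.8 in granulocyte progenitors, from 23.3 to 30.3 in immature neutrophils and from 52.5 to 87.2 in mature B cells. Since the cytosolic genes take up to 29.2% of all UMIs in a class, a higher share of theirs leaves a lower share for all other genes. With these genes left out of the total, the member median was between 0.39 (mature neutrophils) and 0.71 (monocytes).

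Other genes of mitochondrial gene expression are set here beside all genes compared, of which 16.6% were higher and 36.5% lower in granulocyte progenitors and 21.9% and 32.1% in erythroid cells. Of 26 assembly factors of the mitochondrial ribosome, 8 were higher and 2 lower in granulocyte progenitors, and 11 were higher and 1 lower in erythroid cells. Their summed ratio was 1.30 (1.25 to 1.35) in erythroid cells as pooled, but 1.10 (1.05 to 1.14) in the progenitor cluster and 1.24 (1.14 to 1.34) in erythroblasts. Malsu1, an assembly factor of the large subunit, was at 17.1 CPM in control and 38.2 CPM in MYC erythroid cells, a log2 ratio of 1.11 (ratios of 1.84 in the progenitor cluster and 2.30 in erythroblasts), and C1qbp, a matrix protein that binds mitochondrial ribosomal RNA and protein, at 49.9 and 109 CPM in monocytes, a log2 ratio of 1.11. Of 13 translation factors, 1 was higher and 2 lower in granulocyte progenitors, and their summed ratio there was 1.04 (0.995 to 1.08), between 0.993 and 1.17 under the other scalings. Within this list Tsfm, the exchange factor of the mitochondrial elongation factor Tu, stood at 38.0 and 59.2 CPM in granulocyte progenitors (log2 ratio 0.62), whereas Tufm, that elongation factor itself, stood at 43.4 and 34.6 CPM (log2 ratio -0.32). Among 9 factors of mitochondrial DNA transcription, replication and RNA handling, 0 were higher and 1 lower in granulocyte progenitors, the lower one being Polg, the mitochondrial DNA polymerase, at 38.9 and 24.9 CPM. Of the 7 regulators of mitochondrial biogenesis, 6 were compared in granulocyte progenitors, 0 higher and 2 lower, and 6 in erythroid cells, 1 higher and 3 lower. With so few genes nothing is read from these counts. The higher one was Myc, the mouse gene itself, at 34.3 and 57.3 CPM in erythroid cells (log2 ratio 0.72). That pooled ratio lay above those of both stages, 1.33 (1.17 to 1.52) in the progenitor cluster, at 78.1 and 104 CPM, and 1.43 (0.756 to 2.59) in erythroblasts, at 3.76 and 5.39 CPM, since progenitors made up more of the MYC cells. Nrf1, a transcription factor of many nuclear genes for mitochondria, was at 40.9 and 26.0 CPM in immature neutrophils (log2 ratio -0.63), at 72.8 and 44.4 CPM in erythroid cells (-0.70; ratios of 0.436, 0.341 to 0.551, in the progenitor cluster and 0.788, 0.673 to 0.920, in erythroblasts) and at 42.5 and 39.6 CPM in basophils or mast cells (-0.10), where no compared gene of the list had a higher ratio.

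The 13 proteins encoded in mitochondrial DNA, which the mitochondrial ribosome translates, were lower in summed transcript level in 7 of the 9 classes, and in 5 under median-of-ratios scaling or with cytosolic genes left out. In granulocyte progenitors 9 of 13 were lower and 0 higher, and their summed ratio was 0.760 (0.758 to 0.763). Erythroid cells had 9 of 13 lower and 0 higher as well, with a summed ratio of 0.789 (0.785 to 0.793; 0.796 in the progenitor cluster and 0.667 in erythroblasts), and monocytes 7 lower and 0 higher (0.956, 0.953 to 0.960). Under median-of-ratios scaling the summed ratios were 0.855 in granulocyte progenitors and 0.850 in erythroid cells but 1.07 in monocytes and 1.12 in immature neutrophils (0.975 without it). Mature neutrophils had 3 higher and 2 lower and a summed ratio of 1.16 (1.15 to 1.17). Of all genes compared, 36.5% were lower in granulocyte progenitors, 32.1% in erythroid cells, 36.7% in monocytes and 40.6% in mature neutrophils. In the same order 16.6%, 21.9%, 20.3% and 14.4% were higher. The transcript of mt-Nd4l, a subunit of complex I, went from 700 to 259 CPM in granulocyte progenitors, a log2 ratio of -1.43, and that of mt-Cytb, a subunit of complex III, from 4608 to 4373 CPM, a log2 ratio of -0.08. Cells with 10% or more mitochondrial UMIs had been removed from both libraries, so these sums are of cells below that limit. Proliferation genes had summed ratios of 0.895 (0.884 to 0.907) in granulocyte progenitors (1.01 under median-of-ratios scaling), 0.653 (0.645 to 0.660) in erythroid cells (0.557 in the progenitor cluster and 0.788 in erythroblasts), 0.392 (0.348 to 0.439) in mature B cells and 1.05 (0.981 to 1.12) in T or NK cells (0.931 with the 20 most abundant genes left out). The part of cell cycling in the members' ratios was not tested.

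From granulocyte progenitors to mature neutrophils the members dropped in both libraries, more than genes at large and less than cytosolic ribosomal protein genes. In the control the median log2 ratio of mature neutrophils over granulocyte progenitors was -2.63 for the members, with 77 of 78 below 0, against -0.94 for all 10661 genes compared and -3.33 for cytosolic ribosomal protein genes. In the MYC library these medians were -2.60, -0.96 and -2.73. The share below 0 in the control was 68.2% of all genes and 98.8% of cytosolic ribosomal protein genes. In the MYC library 77 of 78 members, 69.5% of all genes and 98.8% of cytosolic ribosomal protein genes were below 0. Mrps5 had the smallest control ratio, with 67.2 CPM in granulocyte progenitors, 11.6 CPM in immature and 2.63 CPM in mature neutrophils (log2 ratio -4.68, and -4.56 in the MYC library), followed by Mrps6, from 14.2 to 0.597 CPM (-4.57), and Mrps18b, from 32.3 to 1.43 CPM (-4.49). Mrps6 shares exon sequence with Slc5a3 on the same strand. Mrpl33 was the 1 member at or above its progenitor level in control mature neutrophils, at 474 CPM in progenitors, 235 CPM in immature and 506 CPM in mature neutrophils (log2 ratio 0.09), and in the MYC library it had 485, 276 and 600 CPM (0.31). Mrpl10, at 26.4 and 22.1 CPM in the control (-0.26), and Mrps21, at 167 and 83.5 CPM (-1.0), had the next highest ratios.

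**Figure D4:**
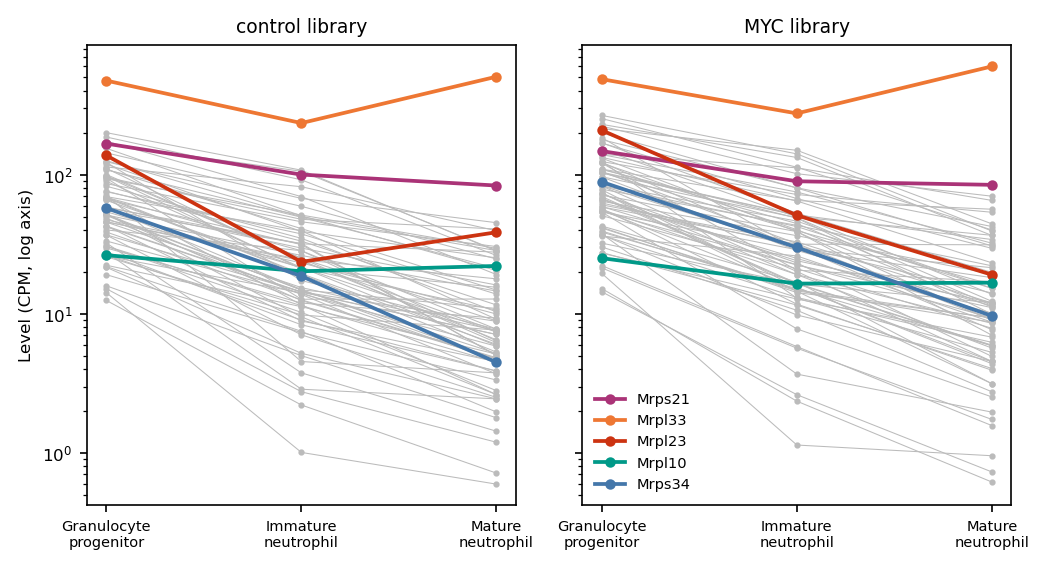
Level (CPM, log axis) of each member in granulocyte progenitors, immature and mature neutrophils of the control library (left) and the MYC library (right), 1 line per gene, with 5 members in colour. Most lines fall steadily, Mrpl33 ends at 506 CPM and 600 CPM, and Mrpl23 turns up to 38.5 CPM in the control but goes on down to 19.1 CPM in the MYC library.

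All 78 members matched the GENCODE vM21 annotation of GRCm38 by gene identifier, lie on 17 chromosomes and are short: their median transcript length in granulocyte progenitors was 1052 bases against 2093 bases for all genes compared. Length moved with the ratio in these libraries. The other genes set beside the members here leave out cytosolic ribosomal protein genes and mitochondrially encoded genes. Among other genes in granulocyte progenitors the median log2 ratio was 0.05 under 1000 bases, 0.00 from 1000 to under 2000 bases, -0.26 from 2000 to under 4000 bases and -0.36 from 4000 bases. The members' medians in the same bins were 0.41 (36 genes), 0.43 (24 genes), 0.37 (15 genes) and 0.26 (3 genes). In mature B cells members of 1000 to under 2000 bases had a median of 0.06 (20 genes) against -0.20 for other genes of that length. The part of length in the ratios was not tested beyond these bins.

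**Figure D5:**
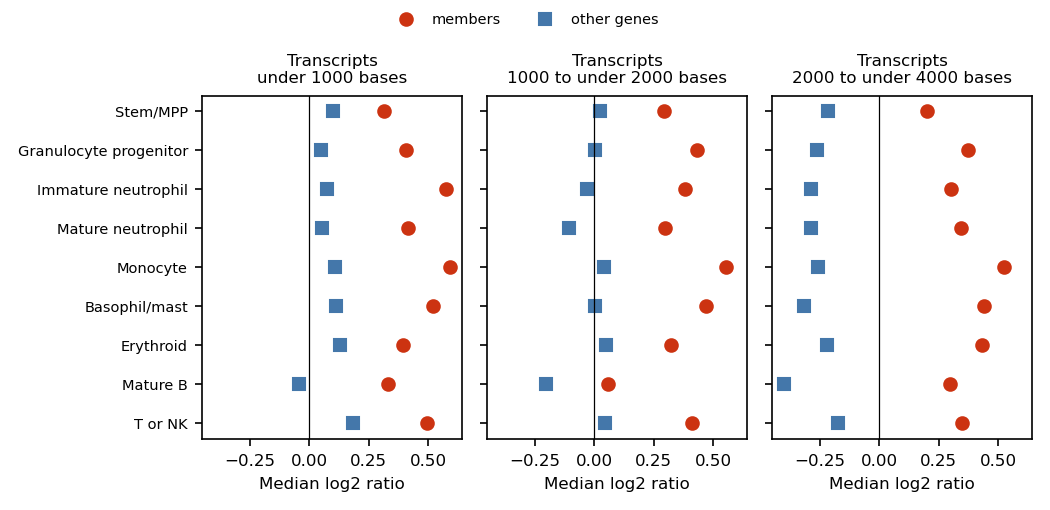
Median log2 ratio of MYC over control for members (red circles) and all other genes compared (blue squares) in 9 cell classes, in 3 panels by median coding-transcript length. The red circles lie to the right of the blue squares in each class and panel, and the squares shift left from the first panel to the last.

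Promoter sequence was examined because most members moved together. RefSeq windows of GRCm38.p6 from 250 bases before to 50 bases after the start were matched by symbol for 69 of 78 members, and both strands were searched for 4 motifs, none of which contains another. CCGGAAG, the core bound by ETS factors such as GABP, was present in 26 of 69 members (37.7%) and in 9.93% of the 27025 genes with a window. GCGCATGCG, a form of the NRF1 site, was found in 7 members (10.1%) and 1.95% of genes, and ATGGCGGC, a form of the YY1 site, in 12 members (17.4%) and 2.61% of genes. The E-box CACGTG, a motif that MYC and MAX bind, was found in 5 members (7.25%) and 8.09% of genes. Members with and without CCGGAAG had medians over classes of 0.42 and 0.40, and members with and without CACGTG 0.44 and 0.40. CCGGAAG was present in Mrps21, Mrpl3 and Mrpl48, each lower in a class or erythroid stage. It was absent from Mrpl23, Mrps14 and Mrps24, each higher in most classes, so the stretches shown next are examples and not a pattern. Stretches upstream of the first exon are shown for 3 members that were higher in most classes and, for contrast, for Mrpl10, with matches to CCGGAAG or GCGCATGCG (either strand) in capitals. They are Mrpl22 (chr11:58171414-58171660, plus strand), Mrpl43 (chr19:45006443-45006557, minus strand), Mrps18a (chr17:46110754-46110985, plus strand) and Mrpl10 (chr11:97041408-97041559, plus strand), each ending at the base before the gene in the GENCODE annotation.
Mrpl22: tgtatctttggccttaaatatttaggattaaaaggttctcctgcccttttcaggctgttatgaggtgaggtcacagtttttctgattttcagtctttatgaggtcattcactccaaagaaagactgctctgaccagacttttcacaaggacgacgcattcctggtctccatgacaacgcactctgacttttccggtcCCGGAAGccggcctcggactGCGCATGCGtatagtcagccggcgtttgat
Mrpl43: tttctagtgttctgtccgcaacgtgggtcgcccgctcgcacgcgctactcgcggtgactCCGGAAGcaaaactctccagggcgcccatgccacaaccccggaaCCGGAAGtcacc
Mrps18a: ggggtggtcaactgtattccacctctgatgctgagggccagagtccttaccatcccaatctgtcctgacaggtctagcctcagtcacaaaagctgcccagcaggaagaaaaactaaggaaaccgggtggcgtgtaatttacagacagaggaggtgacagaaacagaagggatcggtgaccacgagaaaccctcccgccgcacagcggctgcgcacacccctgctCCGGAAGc
Mrpl10: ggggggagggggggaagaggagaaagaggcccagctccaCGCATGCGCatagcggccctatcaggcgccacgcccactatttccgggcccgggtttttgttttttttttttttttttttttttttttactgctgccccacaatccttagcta
Counted from the end of each stretch, Mrpl22 has CCGGAAG starting at 50 bases and GCGCATGCG at 30 bases, Mrpl43 has CCGGAAG at 56 and 12 bases, Mrps18a has it at 8 bases, and Mrpl10 has CGCATGCGC, the reverse complement of GCGCATGCG, at 113 bases. These are matches of letters, not measured binding.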

How the data were processed

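Droplet single-cell 3′ RNA-seq UMI counts per gene and cell barcode were deposited by the authors for 1 control and 1 MYC library of mouse bone marrow. The submitters' processing notes name Cell Ranger 6.0, Seurat and the GRCm38 (mm10) build, without saying which step each served. The counts were used as deposited, with nothing corrected for RNA free in the droplets.

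Barcodes with at least 500 UMIs, at least 200 genes and under 10% mitochondrial UMIs were kept, which removed 137 control and 8 MYC barcodes for depth or genes and 1475 and 1592 for mitochondrial share. Scrublet scores above 0.2 marked 558 control (3.61%) and 356 MYC doublets (2.76%), against 13.7% and 11.6% if doublets made up 0.8% per 1000 barcodes. That limit was chosen after the data were seen, because the automatic one marked 0 cells in the MYC library. Both libraries were clustered together (scanpy 1.11.5, Leiden via leidenalg 0.10.2, resolution 1, 30 components, 15 neighbours, 2000 variable genes), without the members or any listed gene among the variable genes. Names were given by their markers and the 10 leading genes, and unnamed clusters were left out of the class comparisons.

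UMIs were summed by class and library and divided by the class total (CPM). Intervals are exact Poisson for levels and exact conditional binomial for ratios, at 95%, and cover counting error only (scipy 1.17.1, Python 3.11.15). The member median is of log2 ratios with 1 CPM added to each level, so ratios of low genes are understated, and its interval is the order-statistic interval over members. The interval and call code was tested on simulated data. Gene positions and lengths come from GENCODE vM21, which 32158 of 32286 features matched, and promoter windows from RefSeq. The members and lists were chosen with earlier results of these data known. Genes named are the 5 highest in control cells, the 2 largest and 2 smallest ratios in each class among members with at least 50 UMIs there and an interval that excluded 1, the 3 largest and 3 smallest ratios of mature neutrophils to granulocyte progenitors, the Mrps18 paralogues, the 5 proteins with other symbols and the extremes of the other lists. Mrpl57, Mrps14, Mrps16, Mrps24, Mrps2, Mrps36 and Mrpl37, the members with promoters shown and those whose direction differs between classes were named after their values were seen. Other scalings, cell filters, clusterings, count limits and depths were tried as alternatives.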

Additional observations from a re-analysis of the deposited data

Results flagged for a closer look

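The 5 members below were counted as higher in the MYC library in 1 or more classes and as lower in another. For each the pair of classes furthest apart is given, among the classes where it was counted as higher or lower. The difference between classes was not tested, since each class has 1 library per genotype. Mrpl23 had a ratio of 2.16 in immature neutrophils and of 0.495 in mature neutrophils. Mrps21, a small-subunit protein, had ratios of 1.42 in T or NK cells and 0.811 in erythroid cells. Mrpl45, a large-subunit protein of the tunnel exit, was at 25.3 CPM in control and 31.6 CPM in MYC monocytes (1.25, 1.08 to 1.44) and at 46.5 and 33.4 CPM in stem or multipotent progenitors (0.720, 0.564 to 0.915). Mrpl47, the counterpart of bacterial L29, went from 15.9 to 21.4 CPM in granulocyte progenitors (1.34, 1.13 to 1.6) and from 23.6 to 18.7 CPM in erythroid cells (0.791, 0.641 to 0.970), where its log2 ratio turned to 0.19 with cells thinned to 2000 UMIs. Mrps25, a small-subunit protein, was at 35.3 and 47.4 CPM in monocytes (1.34, 1.19 to 1.52) and at 28.5 and 14.8 CPM in mature B cells (0.519, 0.241 to 0.999), the latter from 90 control and 10 MYC UMIs. Of these lower ratios, that of Mrpl23 was also counted as lower under median-of-ratios scaling and the other 4 were not. With the 20 most abundant genes left out, Mrps21 and Mrpl45 were higher in 0 classes, so that their higher ratios were no longer counted either. Within the erythroid class the ratios of Mrps21 were 0.706 in the progenitor cluster and 0.878 (0.768 to 1.0) in erythroblasts, and those of Mrpl47 0.645 and 0.854 (0.531 to 1.32).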

How the results depend on the processing

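The member median stayed above 0 in all 9 classes under every alternative run, and the log2 ratio of the summed level lay between 0.14 (mature B cells) and 0.69 (monocytes), leaving aside the erythroid progenitor cluster alone (ratio 1.07). Over these classes, both pooled lineages (neutrophil and B) and erythroblasts alone, 178 alternative medians were computed, of which 119 lay within the interval over members and 59 outside it; those of the 9 classes follow. Under median-of-ratios scaling it was 0.40 in stem or multipotent progenitors, 0.57 in granulocyte progenitors, 0.65 in immature neutrophils, 0.57 in mature neutrophils, 0.71 in monocytes, 0.66 in basophils or mast cells, 0.48 in erythroid cells and 0.54 in mature B cells. With cytosolic ribosomal protein genes left out of the total it was 0.43 in stem or multipotent progenitors, 0.51 in granulocyte progenitors, 0.71 in monocytes, 0.60 in basophils or mast cells, 0.57 in erythroid cells, 0.48 in mature B cells and 0.56 in T or NK cells. With the 20 most abundant genes left out it was 0.16 in stem or multipotent progenitors, 0.46 in mature neutrophils, 0.43 in monocytes, 0.22 in erythroid cells and 0.27 in T or NK cells. With each cell thinned to 2000 UMIs it was 0.36 in stem or multipotent progenitors, 0.58 in basophils or mast cells, 0.53 in erythroid cells, 0.43 in mature B cells and 0.27 in T or NK cells. Under 5% mitochondrial UMIs it was 0.55 in granulocyte progenitors, 0.65 in monocytes, 0.60 in erythroid cells and 0.56 in T or NK cells. The mean over cells gave 0.51 in erythroid and 0.45 in mature B cells, and a limit of 200 UMIs gave 0.58 in basophils or mast cells and 0.54 in T or NK cells. Granulocyte progenitors had 0.34 with doublets kept, 0.33 at Leiden resolution 0.5, 0.34 with cells classed by markers alone and 0.33 in cluster 9 alone. Erythroid cells had 0.20 at resolution 0.5 and, in stages added after seeing the data, 0.13 in the progenitor cluster (97 MYC cells) and 0.47 in the erythroblast cluster, and stem or multipotent progenitors 0.43 by markers alone. In single clusters, added after seeing the data, the median was 0.49 and 0.57 in mature neutrophil clusters 2 and 4 and 0.66 and 0.48 in monocyte clusters 6 and 8. The cause of these shifts was not tested.

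Of 608 alternatives for single members, 13 turned the direction. The log2 ratio of Mrps21 turned to 0.046 (immature neutrophils), 0.074 (neutrophil lineage) and 0.028 (monocytes) under median-of-ratios scaling, to 0.020 in monocytes without cytosolic genes and to 0.065 in the thinned neutrophil lineage. Thinning also turned Mrpl52 in basophils or mast cells to -0.052, Mrpl47 in erythroid cells to 0.19 and Mrpl48 in erythroblasts to 0.10, the last also at resolution 2 (0.13). Mrpl33 in monocytes turned to -0.036 without the 20 most abundant genes and to -0.046 in cluster 8, Mrps15 in granulocyte progenitors to -0.0083 in cluster 9, and Mrpl10 in mature neutrophils to 0.050 in cluster 4.

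The count of members higher moved by more than 1.5 times with thinning, from 35 to 7 in stem or multipotent progenitors, from 59 to 33 in granulocyte progenitors, from 36 to 15 in basophils or mast cells, from 53 to 34 in erythroid cells and from 27 to 6 in T or NK cells, where the share of all genes higher fell to 4.66%, 8.42%, 7.21%, 10.4% and 6.32%. A limit of 200 UMIs left fewer genes to compare: 17 of 21 members were higher in basophils or mast cells, 6 of 13 in mature B cells and 13 of 16 in T or NK cells (25.8%, 13.8% and 22.8% of all genes). Mature neutrophil clusters 2 and 4 alone, with fewer members to compare, had 17 of 47 and 16 of 56 higher (11.5% and 10.97% of all genes), against 40 of 75 in all. With other scalings the share of all genes higher moved as well: 55 members were higher in stem or multipotent progenitors with cytosolic genes left out (21.9% of all genes), 28 and 27 in mature B cells with median-of-ratios scaling and with cytosolic genes left out (14.5% and 12.8%, from 13 members), and 13 in T or NK cells with the 20 most abundant left out (8.07%). The mean over cells gave 42 in mature B cells (20.8% of all genes) and 45 in T or NK cells (27.8%). At resolution 0.5 erythroid cells had 32 higher and 10 lower of 78, nearer to all genes (26.5% and 28.3%) than the 53 and 5 at resolution 1, and the erythroid progenitor cluster alone had 14 higher and 7 lower (14.7% and 33.5%). Erythroblasts alone had 44 of 75 higher, but 21 of 75 with thinning, 19 of 75 at resolution 0.5 and 17 of 67 at resolution 2. The shares of all genes in these 3 alternatives were 8.74%, 8.63% and 12.4%. No paired analysis was possible because each genotype had 1 library. Mature B cells had too few cells under 5% mitochondrial UMIs, and no cluster was named stem or multipotent progenitor at resolution 0.5, so those alternatives gave no value.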
